A study of Mus musculus with 10 samples.

Results

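The genes described here encode heat shock chaperones of the cytosol and of mitochondria, together with cochaperones and heat shock transcription factors. They were a written list of 42 genes, and a gene counted as measured where a probe set of the array named that gene and no other. This held for 39 of the 42, out of 19938 genes measured in all. Hspa1b was named only in a probe set with several symbols, and Hsp90ab1 and Hsf1 were not analysed here. Where several probe sets named 1 gene, the brightest over all arrays stood for it.

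Total RNA came from cultured mouse neurons of mixed strain (129Sv-C57Bl/6) labelled as terminally differentiated, and 1 Affymetrix whole-transcript array was run per sample. The treated neurons received SP600125, a small molecule that blocks JUN N-terminal kinases (JNK), at 25 µM, applied 3 times with 2 h between applications, and the control neurons received the solvent DMSO on the same schedule. Each group held 5 biological replicates, lettered a to e. In both groups a and b were made with drug batch 1 and c to e with drug batch 2, where a batch means a lot of the inhibitor. Whether the replicates were separate cultures is not stated, so a p-value speaks only for the spread among these samples, and that spread may be technical.

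Chaperones hold unfolded proteins and help them fold, and cells make more of many of them when proteins are damaged. HSP70 binds short hydrophobic stretches in a cycle driven by ATP, in which J-domain proteins deliver clients and start hydrolysis, while HSP110 and BAG proteins release ADP. HSP90 takes over clients such as kinases and steroid receptors, and its cochaperones set the order of its steps. Small heat shock proteins hold clients without using ATP, HSP60 with HSP10 folds proteins inside mitochondria, and heat shock factors switch on many of these genes by binding repeats of the bases GAA in alternating orientation. In neurons, which do not divide, these proteins are known for their handling of aggregating proteins.

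Most of the measured chaperone genes were lower in SP600125 neurons than in DMSO neurons. Of 39 members, 29 fell and 4 rose (limma with drug batch as a term, Benjamini-Hochberg adjusted p under 0.05 over all 19938 genes), while 29.9% of all genes fell and 17% rose. The members' median change was −0.27 on the log2 scale, beside −0.03 for all genes. The changes were small: only Hsph1, the HSP110 chaperone, fell by 1.5-fold or more among the members, as did 1.38% of all genes. The 4 that rose were Hspb2, Hspb6, Dnajb6 and Hspa1l. All 5 SP600125 arrays lay below all 5 DMSO arrays for 20 members (16.4% of all genes) and above them for 2 members (6.65% of all genes). The direction of change also went with the brightness of a probe set over the whole array, so the members' values are given within classes of brightness as well.

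**Figure D1:**
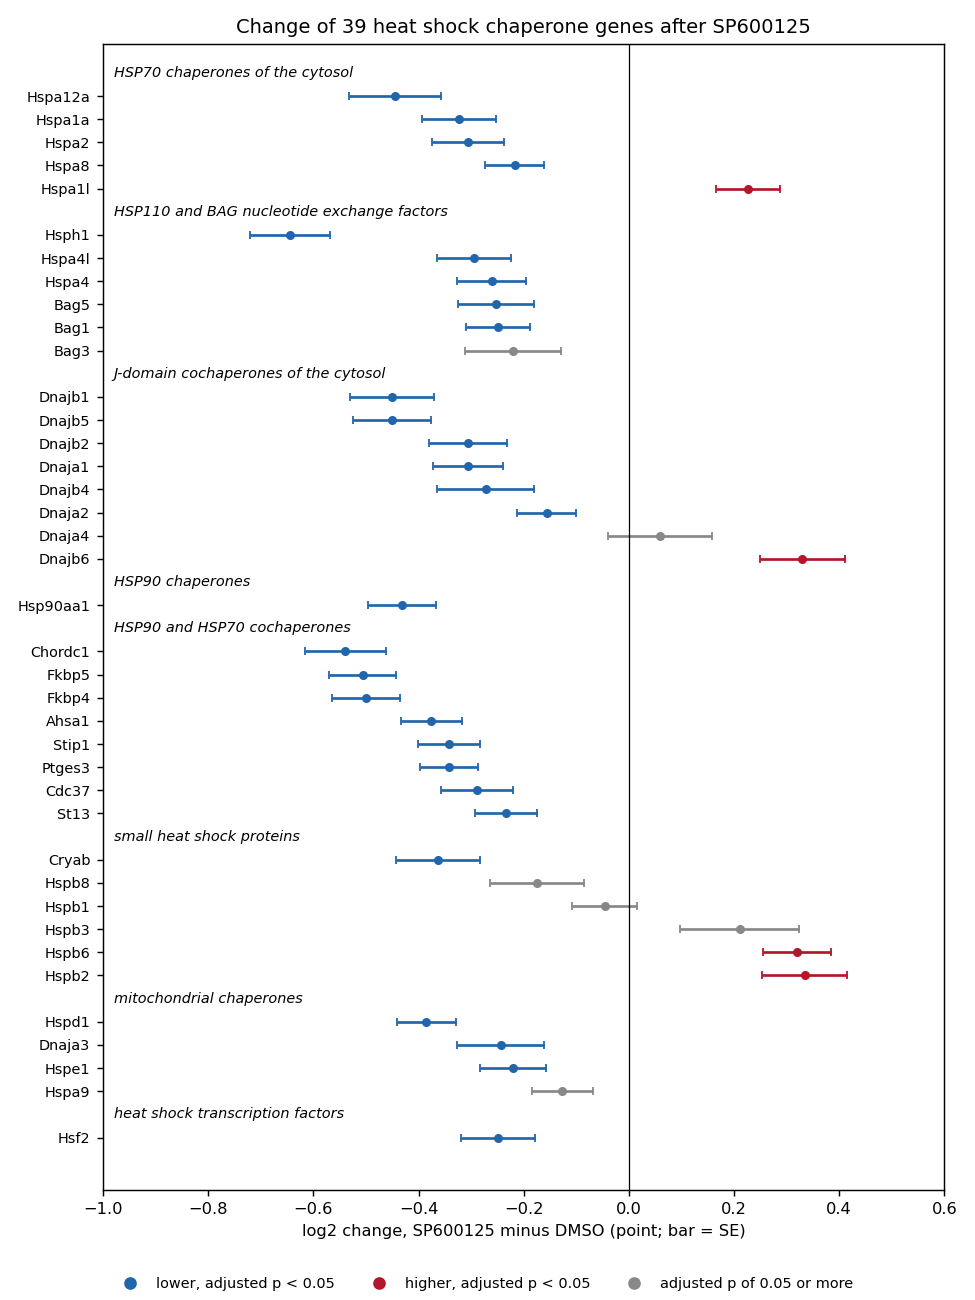
Change of each of the 39 measured chaperone genes, SP600125 minus DMSO on the log2 scale, with the SE of the limma fit as a bar, grouped by role. Blue points fell, red points rose and grey points did not pass an adjusted p of 0.05. The 29 blue points lie left of 0, with Hsph1 farthest at −0.64, and the 4 red points lie between 0.23 and 0.33.

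Some facts of the whole series bear on these values. The deposited values are log2 signals, and the levels of different genes are not compared, since each probe set responds differently. Over all genes 3389 rose and 5962 fell, and this split depends on how arrays are scaled: after quantile normalization it was 1497 and 4494, with arrays aligned at their median over all probe sets it was 1500 and 8602, and with arrays aligned at the median of named genes 4455 and 5052. Alignment at the all-probe-set median moved the median of all genes to −0.13 and that of the members to −0.37; it shifts every gene of an array alike, so the members' median minus that of all genes is −0.24 with or without it. That difference was −0.17 after quantile normalization, −0.16 after cyclic loess and −0.13 among the genes brighter than the 95th percentile of olfactory receptor genes. Jun, a gene known to depend on JNK, had 7.96, 7.84, 8.12, 7.88 and 8.07 in SP600125 neurons, against 8.50, 8.57, 8.55, 8.51 and 8.53 in DMSO neurons. Its groups did not overlap, and it fell by 0.56 (SE 0.06, limma adjusted p = 7.985e-05). After cyclic loess Jun fell by 0.37 (limma adjusted p = 0.001759). Of all genes 29.9% fell and 16.4% lay lower without overlap, and 65.8% fell in the brightness class from 8 to 10, which holds Jun.

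The neuronal label was set against marker genes. The mean log2 signal over 8 neuronal markers was 8.49 to 9.07 in SP600125 neurons, against 8.85 to 9.22 in DMSO neurons, and 7 of the 8 markers fell. The cultures also gave signal for other cell types, with means over 8 astrocyte markers of 8.28 to 8.38 in SP600125 neurons and 8.36 to 8.43 in DMSO neurons (1 rose and 4 fell). Over 9 fibroblast, smooth muscle and endothelial markers the means were 8.17 to 8.28 in SP600125 neurons and 8.49 to 8.60 in DMSO neurons (5 fell). All 8 neuronal markers and 7 of the 8 astrocyte markers lay above the 95th percentile of olfactory receptor genes. So did 8 of the 9 fibroblast, smooth muscle and endothelial markers. The means are not compared between cell types. Oligodendrocyte lineage markers (3 of 7 fell) had means of 6.69 to 6.73 in SP600125 neurons and 6.80 to 6.89 in DMSO neurons. Microglia and macrophage markers (4 of 8 rose) had means of 4.61 to 4.80 in SP600125 neurons and 4.41 to 4.6 in DMSO neurons, and 6 of the 8 lay at or under a signal of 5.42, the 95th percentile of 1027 olfactory receptor genes. Stem cell and progenitor markers (1 of 7 rose and 3 fell) had means of 6.28 to 6.44 in SP600125 neurons and 6.52 to 6.68 in DMSO neurons. Nes had the largest change of the 7, −1.34 (SE 0.06), while Sox2 (0.04), Pou5f1 (0.01) and Zfp42 (−0.02) did not pass. Of the 7, 4 lay above the olfactory 95th percentile, and Nanog, which rose, lay under it. Beside these counts, 29.9% of all genes fell and 17% rose. From 8 to 10 in brightness 65.8% fell, and from 4 to 6 31.7% rose. After cyclic loess 5 neuronal and 5 fibroblast, smooth muscle and endothelial markers fell, beside 17.7% of all genes. Then 2 astrocyte markers rose and 2 fell, 2 oligodendrocyte lineage markers fell, and 1 microglia and macrophage marker rose. The part of these markers in the members' changes was not tested. In such bulk samples fewer cells of a type and less RNA per cell cannot be told apart.

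The b arrays stood apart from the others of their group in the neuronal markers. Array b of SP600125 had the group's highest neuronal mean, 9.07, where the other 4 had 8.49 to 8.61, and array b of DMSO had its group's lowest, 8.85, where the other 4 had 9.20 to 9.22. Of the members, 30 of 39 were higher on SP600125 b than on SP600125 a. In DMSO neurons 9 of 39 were higher on b than on a. The median of b minus a was 0.12 for members and 0.03 for all genes in SP600125 neurons. In DMSO neurons it was −0.105 for members and 0.02 for all genes. The SD over all genes was 1.69 on SP600125 b and 1.63 on SP600125 a. It was 1.76 on DMSO b and 1.825 on DMSO a. Whether the members differed between b and a from genes of like brightness was not tested. The SD was smaller on every SP600125 array (1.63 to 1.71) than on every DMSO array (1.76 to 1.84). The median over all probe sets was higher on every SP600125 array (5.63 to 5.71) than on every DMSO array (5.51 to 5.61). Without both b arrays 4 members rose and 32 fell, beside 17.1% and 31.6% of all genes. The median change was then −0.31 for members and −0.03 for all genes.

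Promoter sequences from RefSeq (mouse build GRCm38.p6, 250 bases before to 50 after the annotated start) were available for 33 of the 39 members. None was available for Hspa8, Hsp90aa1, St13, Hspb2, Cryab and Hspa9. They were searched for the repeat that heat shock factors bind, written as 3 alternating units, GAANNTTCNNGAA or TTCNNGAANNTTC, which are reverse complements of each other and so cover both strands. It occurred in 5 of 33 members (15.2%), in Chordc1, Dnajb6, Hspd1, Hspe1 and Hsph1, and in 0.662% of all 27025 genes with such a window. The shorter form of 2 units, GAANNTTC or TTCNNGAA, each the same on both strands and held by every longer match, was in 16 of 33 members (48.5%) and in 17.0% of all genes. The windows below are shown because they belong to the member that fell most, to members with the longest repeats, to a member that rose and to the best known inducible HSP70, each 5′ to 3′ on the gene's strand. Capitals mark the longest match.
Hsph1, chr5:149636287-149636586, minus strand: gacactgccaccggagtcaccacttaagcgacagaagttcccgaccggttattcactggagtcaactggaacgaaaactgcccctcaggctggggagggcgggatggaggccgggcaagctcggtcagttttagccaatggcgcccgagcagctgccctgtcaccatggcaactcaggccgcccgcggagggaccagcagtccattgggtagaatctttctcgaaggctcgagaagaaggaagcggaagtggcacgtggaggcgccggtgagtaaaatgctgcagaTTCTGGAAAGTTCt
Chordc1, chr9:18292017-18292316, plus strand: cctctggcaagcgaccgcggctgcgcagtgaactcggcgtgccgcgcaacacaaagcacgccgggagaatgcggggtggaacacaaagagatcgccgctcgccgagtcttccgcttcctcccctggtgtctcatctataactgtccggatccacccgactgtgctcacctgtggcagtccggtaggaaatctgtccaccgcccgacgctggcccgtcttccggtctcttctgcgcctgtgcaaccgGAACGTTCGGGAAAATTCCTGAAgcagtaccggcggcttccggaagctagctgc
Hspe1, chr1:55087898-55088197, plus strand: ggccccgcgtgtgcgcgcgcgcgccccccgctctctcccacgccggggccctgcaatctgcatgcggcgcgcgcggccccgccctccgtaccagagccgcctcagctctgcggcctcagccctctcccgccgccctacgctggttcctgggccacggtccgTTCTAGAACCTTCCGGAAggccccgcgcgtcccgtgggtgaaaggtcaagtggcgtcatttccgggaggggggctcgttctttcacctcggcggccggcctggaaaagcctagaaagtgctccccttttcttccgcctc
Dnajb6, chr5:29735648-29735947, plus strand: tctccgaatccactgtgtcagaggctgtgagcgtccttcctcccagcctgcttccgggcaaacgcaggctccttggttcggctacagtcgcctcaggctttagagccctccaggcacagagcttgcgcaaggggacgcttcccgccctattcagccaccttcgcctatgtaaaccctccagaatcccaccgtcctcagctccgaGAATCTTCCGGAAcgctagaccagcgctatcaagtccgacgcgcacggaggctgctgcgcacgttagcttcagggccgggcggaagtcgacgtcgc
Hspa1a, chr17:34972107-34972406, minus strand: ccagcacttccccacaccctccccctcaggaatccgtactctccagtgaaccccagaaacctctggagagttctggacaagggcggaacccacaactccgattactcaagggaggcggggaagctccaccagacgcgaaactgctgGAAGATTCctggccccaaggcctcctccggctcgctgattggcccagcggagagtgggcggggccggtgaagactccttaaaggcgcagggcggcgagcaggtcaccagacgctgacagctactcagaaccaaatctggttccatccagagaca

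In these windows the Chordc1 match ran over 23 bases and began 4 bases before the start, the Hspe1 match ran over 18 bases from 89 bases before it, and the Dnajb6 match ran over 13 bases from 46 bases before it. The Hsph1 match lay after the annotated start. Hspd1 and Hspe1 are read in opposite directions from starts 216 bases apart, so their windows shared 285 bases and the same match. The 5 members with a match of 3 units had a median change of −0.39, with 4 that fell and 1, Dnajb6, that rose. The 11 with a match of 2 units only had a median of −0.22 (5 fell, 1 rose and 5 did not pass), and the 17 with neither had a median of −0.31 (16 fell and 1 rose). Falls were thus common with and without a match, and a match is letters in a window, not a bound site. A window without a match may still belong to a gene with such a repeat. Imperfect repeats and sequence outside the window were not searched.

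Among the HSP70 chaperones of the cytosol 4 of 5 measured members fell and Hspa1l rose, with a median of −0.31. After cyclic loess 4 of 5 fell (median −0.265). The counts by class given here and below stand beside the 29.9% of all genes that fell. In the brightness classes from 6 to 12 that share was 50.2% to 65.8%. Hspa1a, the main stress-inducible HSP70, had 6.31, 6.43, 6.08, 6.15 and 6.27 in SP600125 neurons, against 6.56, 6.48, 6.60, 6.66 and 6.57 in DMSO neurons. Every SP600125 array was lower than every DMSO array, with array b of each group closest to the other. Hspa1a averaged 6.25 ± 0.14 in SP600125 neurons and 6.57 ± 0.07 in DMSO neurons (SD, n = 5 each), and fell by 0.32 (SE 0.07, limma adjusted p = 0.002866). Hspa1a and Hspa1b are near-identical copies, whose promoter windows shared 296 of 300 bases, so signal from Hspa1b in the Hspa1a probe set cannot be told apart. Hspa8, the constitutive HSC70 that most cells rely on and that also strips clathrin from vesicles at synapses, had 11.61, 11.71, 11.68, 11.64 and 11.59 in SP600125 neurons, against 11.90, 11.81, 11.87, 11.84 and 11.89 in DMSO neurons. These groups did not overlap either, although the gap was narrow. Hspa8 fell by 0.22 (SE 0.06, limma adjusted p = 0.00662), and 2 further probe sets for it gave −0.21 and −0.27.

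Hspa12a, a distant relative of the HSP70 family found in brain, had 6.24, 6.65, 6.44, 6.28 and 6.40 in SP600125 neurons, against 6.93, 6.62, 6.95, 6.85 and 6.90 in DMSO neurons. The groups overlapped through their b arrays, SP600125 b being slightly above DMSO b. Hspa12a fell by 0.44 (SE 0.09, limma adjusted p = 0.001447). Hspa2, an HSP70 best known for its role in sperm formation, fell by 0.31 (SE 0.07). Hspa1l, an HSP70 that is not induced by heat and is best known from testis, had 4.99, 5.0, 4.77, 4.68 and 4.81 in SP600125 neurons, against 4.61, 4.76, 4.6, 4.63 and 4.52 in DMSO neurons. It rose by 0.23 (SE 0.06, limma adjusted p = 0.008471), but its signal lay under the olfactory 95th percentile and its change was 0.07 after cyclic loess (adjusted p = 0.3507). Its rise was no larger than the median change of the olfactory receptor genes, 0.23. Hspa1l and Hspa1a are read in opposite directions from starts 547 bases apart. Whether the 2 genes differed in their response was not tested.

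Of the nucleotide exchange factors, 5 of 6 members fell, with a median of −0.26, and 1 of 6 after cyclic loess (median −0.13). Hsph1, the inducible HSP110 that works with HSP70 to pull apart aggregates, had 8.25, 8.44, 8.35, 8.15 and 8.34 in SP600125 neurons, against 9.07, 8.75, 8.95, 8.95 and 9.03 in DMSO neurons. The groups did not overlap, and their nearest arrays were the b arrays of both. Hsph1 averaged 8.31 ± 0.11 in SP600125 neurons and 8.95 ± 0.13 in DMSO neurons (SD, n = 5 each), and fell by 36.0% on the linear scale (log2 change −0.64, SE 0.08, limma adjusted p = 9.253e-05). It was lower in both drug batches, by −0.57 in batch 1 and −0.70 in batch 2, and it fell by 0.47 after cyclic loess (adjusted p = 0.0004149). Its relatives Hspa4 and Hspa4l, HSP110 proteins that are less tied to stress, fell by 0.26 (SE 0.07) and 0.29 (SE 0.07) and lay below DMSO neurons on every SP600125 array.

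The BAG proteins showed smaller shifts. Bag3, which links HSP70 clients to autophagy and is itself induced by stress, had 5.71, 6.09, 5.67, 5.77 and 6.00 in SP600125 neurons, against 6.05, 6.05, 6.10, 6.24 and 5.90 in DMSO neurons. The groups overlapped, with SP600125 b above 3 of the DMSO arrays, and the change of −0.22 (SE 0.09, limma adjusted p = 0.05783) did not pass the threshold. Without SP600125 b it was −0.29 (limma adjusted p = 0.013), without SP600125 e −0.27 (0.03781) and without DMSO e −0.27 (0.0399), all past the threshold. Bag1, which ties HSP70 to the proteasome, fell by 0.25 (SE 0.06), and so did Bag5, an inhibitor of HSP70-assisted folding (SE 0.07).

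Of the 8 J-domain proteins of the cytosol, 6 fell, Dnajb6 rose and Dnaja4 did not pass the test, with a median of −0.29. After cyclic loess 4 of the 8 fell (median −0.13). Dnajb1, the inducible HSP40 that partners HSP70 in breaking up aggregates, had 6.70, 6.94, 6.74, 6.91 and 6.92 in SP600125 neurons, against 7.04, 7.09, 7.41, 7.39 and 7.52 in DMSO neurons. The groups did not overlap, and the DMSO arrays of batch 2 were clearly higher than those of batch 1. Dnajb1 fell by 0.45 (SE 0.08, limma adjusted p = 0.0007721). Dnajb5, a heat-inducible relative, had 6.44, 6.52, 6.37, 6.43 and 6.41 in SP600125 neurons, against 6.83, 6.72, 6.93, 7.13 and 6.83 in DMSO neurons. Its SP600125 arrays were tightly grouped below all DMSO arrays, and it fell by 0.45 (SE 0.07, limma adjusted p = 0.0005081).

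The other members that fell in this class were Dnajb2, a neuron-enriched protein that sends clients to the proteasome, at −0.31 (SE 0.08), and Dnaja1, a farnesylated partner of HSP70, at −0.31 (SE 0.07). Dnajb4 was at −0.27 (SE 0.09) and Dnaja2, a partner of HSP70 in refolding, at −0.16 (SE 0.06), and both were near the threshold (limma adjusted p = 0.0261 and 0.03494). A second probe set of Dnaja1 gave −0.12 (SE 0.08), and there the groups overlapped, with SP600125 b above every DMSO array. Dnajb6, an inhibitor of polyglutamine aggregation, had 5.39, 5.68, 5.60, 5.83 and 5.63 in SP600125 neurons, against 5.31, 5.15, 5.49, 5.19 and 5.34 in DMSO neurons. SP600125 a lay below DMSO c, while within each batch the SP600125 arrays were the higher ones. Dnajb6 rose by 0.33 (SE 0.08, limma adjusted p = 0.004897), with 0.24 after cyclic loess (adjusted p = 0.0535). Its mean of 5.30 in DMSO neurons lay under the olfactory 95th percentile of 5.42, as did 4 of its 5 DMSO arrays. Dnaja4, a J-domain protein linked to cholesterol synthesis, had a change of 0.06 (SE 0.10).

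Hsp90aa1, the inducible HSP90 of the cytosol, had 11.07, 11.34, 11.15, 11.09 and 11.10 in SP600125 neurons, against 11.65, 11.50, 11.59, 11.57 and 11.60 in DMSO neurons. The highest SP600125 array was again b and the lowest DMSO array was again b, and the groups stayed apart. Hsp90aa1 averaged 11.15 ± 0.11 in SP600125 neurons and 11.58 ± 0.05 in DMSO neurons (SD, n = 5 each), and fell by 25.8% on the linear scale (log2 change −0.43, SE 0.07, limma adjusted p = 0.0003314). Its 2 further probe sets gave −0.41 and −0.47.

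All 8 measured HSP90 and HSP70 cochaperones fell, with a median of −0.36, and in 7 of them no SP600125 array reached a DMSO array. Over all genes 29.9% fell and 16.4% lay lower without overlap. In the brightness classes from 6 to 8 and 8 to 10, 50.2% and 65.8% of genes fell. After cyclic loess 6 of the 8 fell, with a median of −0.23, while St13 (−0.07) and Cdc37 (−0.10) did not pass. Chordc1, an HSP90-binding protein with zinc-binding CHORD domains, had 6.48, 6.32, 6.25, 6.46 and 6.17 in SP600125 neurons, against 7.08, 6.81, 6.92, 6.72 and 6.85 in DMSO neurons. The groups were well apart, and Chordc1 fell by 0.54 (SE 0.08, limma adjusted p = 0.0002564). Fkbp5, the immunophilin FKBP51 that holds steroid receptors in a low-affinity state and that glucocorticoids induce, had 6.81, 7.01, 7.04, 6.88 and 6.83 in SP600125 neurons, against 7.44, 7.38, 7.44, 7.39 and 7.45 in DMSO neurons. Fkbp5 fell by 0.51 (SE 0.06, limma adjusted p = 0.0001336), with DMSO arrays almost level with each other. Fkbp4, the related FKBP52 that favours receptor activity, had 8.11, 8.40, 8.20, 8.25 and 8.26 in SP600125 neurons, against 8.76, 8.65, 8.75, 8.81 and 8.77 in DMSO neurons. It fell by 0.50 (SE 0.07, limma adjusted p = 0.0001628), so both of these immunophilins, which have opposing effects on receptors, fell.

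Ahsa1, the activator of the HSP90 ATPase, had 7.92, 7.96, 8.0, 8.0 and 8.03 in SP600125 neurons, against 8.31, 8.20, 8.38, 8.39 and 8.51 in DMSO neurons. It fell by 0.38 (SE 0.06, limma adjusted p = 0.0003693) without overlap. Ptges3, the p23 cochaperone that stabilises the closed form of HSP90, had 10.57, 10.59, 10.58, 10.52 and 10.51 in SP600125 neurons, against 10.98, 10.88, 10.89, 10.90 and 10.85 in DMSO neurons. It fell by 0.34 (SE 0.06, limma adjusted p = 0.0004437) without overlap. Its 2 further probe sets gave −0.29 (SE 0.05) and −0.075 (SE 0.07). In the latter, with means of 8.64 in SP600125 neurons and 8.71 in DMSO neurons, the groups overlapped. Stip1, which bridges HSP70 and HSP90, fell by 0.34 (SE 0.06), Cdc37, which brings kinases to HSP90, by 0.29 (SE 0.07), and St13, which slows the release of ADP from HSP70, by 0.23 (SE 0.06). Only St13 had overlapping groups.

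**Figure D2:**
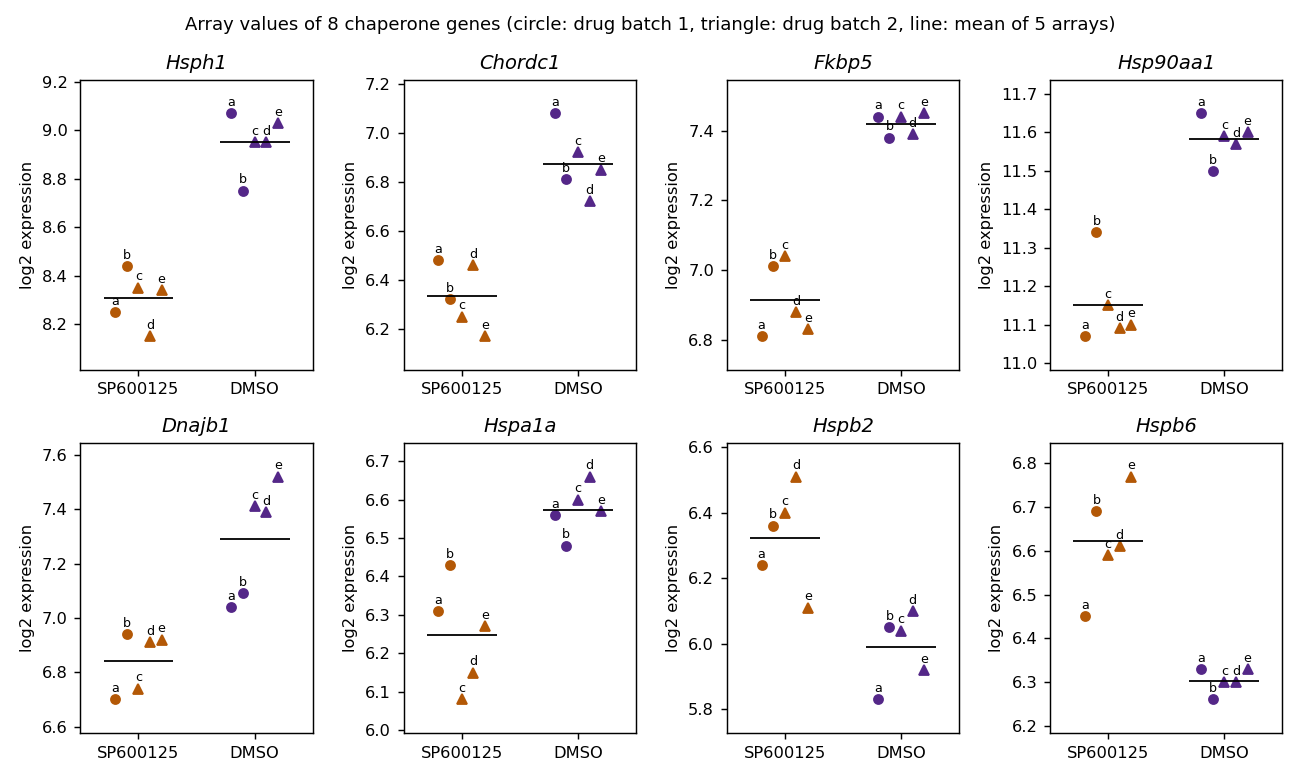
Log2 expression of 8 members on each array, SP600125 left and DMSO right, with replicate letters, circles for drug batch 1, triangles for drug batch 2 and a line at the mean of 5 arrays; each panel has its own axis, which does not start at 0. Hsph1, Chordc1, Fkbp5, Hsp90aa1, Dnajb1 and Hspa1a are lower on every SP600125 array than on any DMSO array, and Hspb2 and Hspb6 are higher.

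The small heat shock proteins did not share a direction. Of 6 measured members 2 rose, 1 fell and 3 did not pass the test, with a median of 0.08. Of all genes 17% rose and 29.9% fell. Hspb1, Hspb3 and Hspb8 lay in the brightness class from 4 to 6, where 31.7% of genes rose and 8.82% fell. Hspb2, Hspb6 and Cryab lay in the class from 6 to 8, where 5.23% rose and 50.2% fell. After cyclic loess 2 of the 6 rose and 0 fell (median −0.001). Cryab, alpha B-crystallin, which holds unfolding proteins in lens, muscle and glia, had 7.07, 6.63, 7.03, 6.90 and 6.94 in SP600125 neurons, against 7.23, 7.36, 7.26, 7.28 and 7.25 in DMSO neurons. The groups did not overlap, and SP600125 b was the lowest array. Cryab fell by 0.36 (SE 0.08, limma adjusted p = 0.002565), or by 0.21 after cyclic loess (adjusted p = 0.08977). Hspb2, known mainly from muscle, is listed next to Cryab in the RefSeq gene table on chromosome 9, and it went the other way. It had 6.24, 6.36, 6.40, 6.51 and 6.11 in SP600125 neurons, against 5.83, 6.05, 6.04, 6.10 and 5.92 in DMSO neurons, with SP600125 e only just above the highest DMSO array. Hspb2 rose by 0.33 (SE 0.08, limma adjusted p = 0.004709).

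Hspb6, a small heat shock protein known for relaxing smooth muscle, had 6.45, 6.69, 6.59, 6.61 and 6.77 in SP600125 neurons, against 6.33, 6.26, 6.30, 6.30 and 6.33 in DMSO neurons. All SP600125 arrays were above the closely spaced DMSO arrays, and Hspb6 rose by 0.32 (SE 0.07, limma adjusted p = 0.001716). Hspb2 and Hspb6 were the only members that also rose after cyclic loess (0.35 and 0.39). Hspb1, the stress-induced HSP27 that also binds actin, had 6.14, 6.06, 5.87, 5.84 and 5.92 in SP600125 neurons, against 5.95, 6.15, 5.99, 5.98 and 5.99 in DMSO neurons. These ranges overlapped and the change was −0.05 (SE 0.06, limma adjusted p = 0.5633), with −0.01 from its second probe set. Hspb8, the partner of BAG3, had a change of −0.17 (SE 0.09) and Hspb3, best known from muscle, 0.21 (SE 0.11), neither past the threshold. Hspb3 lay under the olfactory 95th percentile, and without DMSO d its change was 0.33 (limma adjusted p = 0.006844).

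Of the 4 mitochondrial chaperones 3 fell, with a median of −0.23, and 1 of 4 after cyclic loess (median −0.10). Hspd1, the HSP60 chaperonin of the mitochondrial matrix, had 10.33, 10.29, 10.20, 10.10 and 10.19 in SP600125 neurons, against 10.76, 10.73, 10.57, 10.48 and 10.50 in DMSO neurons. Batch 1 was higher than batch 2 in both groups, and the SP600125 arrays lay below all DMSO arrays. Hspd1 fell by 0.38 (SE 0.06, limma adjusted p = 0.0002878), and its second probe set gave −0.46. Hspe1, the HSP10 lid of that chaperonin, had 9.94, 9.99, 10.06, 10.12 and 10.01 in SP600125 neurons, against 10.34, 10.34, 10.18, 10.18 and 10.19 in DMSO neurons. The groups were apart, but in batch 2 narrowly so. Hspe1 fell by 0.22 (SE 0.06, limma adjusted p = 0.01188), and by 0.12 after cyclic loess (adjusted p = 0.1719). Hspd1 and Hspe1, which share the stretch of promoter printed above, thus both fell. Dnaja3, the J-domain protein of mitochondria, fell by 0.24 (SE 0.08), and Hspa9, the mitochondrial HSP70 mortalin that pulls proteins through the import channel, had −0.13 (SE 0.06, limma adjusted p = 0.08185), which did not pass.

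Hsf2, a heat shock factor that acts mainly in development and alongside HSF1, had 7.01, 7.29, 7.19, 7.07 and 7.10 in SP600125 neurons, against 7.55, 7.33, 7.38, 7.27 and 7.36 in DMSO neurons. The groups overlapped by SP600125 b alone, which lay just above DMSO d. Hsf2 fell by 0.25 (SE 0.07, limma adjusted p = 0.01096), and by 0.08 after cyclic loess (adjusted p = 0.3255).

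The change went with brightness over the whole array. Among genes with a mean signal of 4 to 6 on the log2 scale 31.7% rose and 8.82% fell, with a median of 0.12, whereas at 8 to 10 the shares were 2.39% and 65.8%, with a median of −0.24. The dim class held 7377 of the 19938 genes and 8 of the 39 members. In it 1 of 8 members fell and 2 rose, with a median of 0.01. From 6 to 8, 12 of 14 members fell (85.7%, beside 50.2% of genes), with medians of −0.31 for members and −0.18 for genes. From 8 to 10, 11 of 11 members fell, with medians of −0.29 for members and −0.24 for genes, and from 10 to 12, 5 of 6 fell (83.3%, beside 50.6% of genes), with medians of −0.28 for members and −0.16 for genes. Of the 1027 olfactory receptor genes, which neurons of this kind are not known to use, the median change was 0.23. In all 4 classes the members' median was below that of genes in the same class, a difference that was not tested.

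**Figure D3:**
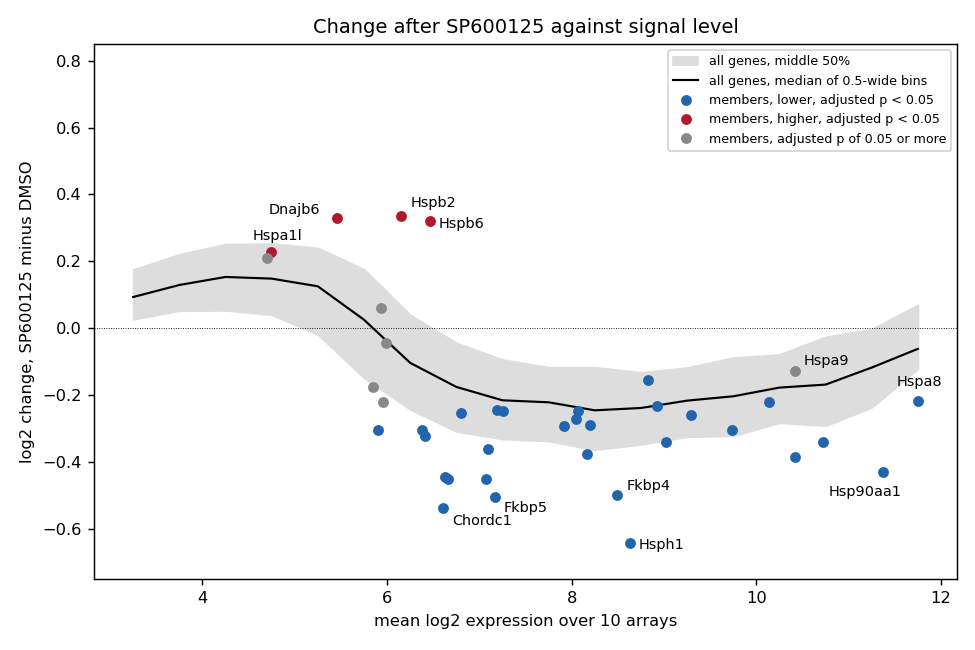
Change after SP600125 (log2, SP600125 minus DMSO) against mean log2 expression over all 10 arrays. The black line is the median of all genes in bins 0.5 wide and the grey band their middle 50%; coloured points are the 39 members. Hsph1, Chordc1, Fkbp5, Fkbp4 and Hsp90aa1 lie below the band, Hspb2, Hspb6 and Dnajb6 above it, and Hspa1l and Hspa9 within it.

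Cyclic loess, which removes differences between arrays that depend on brightness, was applied to the same values. It left 17 members that fell and 2 that rose, beside 17.7% and 9.44% of all genes, and the members' median was −0.18, with −0.02 for all genes. Of the 33 calls 14 were lost, 12 of them falls: Cryab, Hspe1, Hsf2, Hspa4, Hspa4l, Bag1, Bag5, Dnaja2, Dnajb4, St13, Cdc37 and Dnaja3. The 2 rises lost were Dnajb6 and Hspa1l. The 17 that still fell were Hsph1, Chordc1, Fkbp5, Fkbp4, Dnajb1, Dnajb5, Hspa12a, Hsp90aa1, Hspd1, Ahsa1, Ptges3, Hspa1a, Hspa8, Hspa2, Dnaja1, Dnajb2 and Stip1. Hsp90aa1 barely moved, at −0.40 after loess, and Hspa8 stayed at −0.21, while Ahsa1 shrank to −0.19 and Stip1 to −0.18. Of the HSP110 and BAG members only Hsph1 still fell, and of the small heat shock proteins none did.

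**Figure D4:**
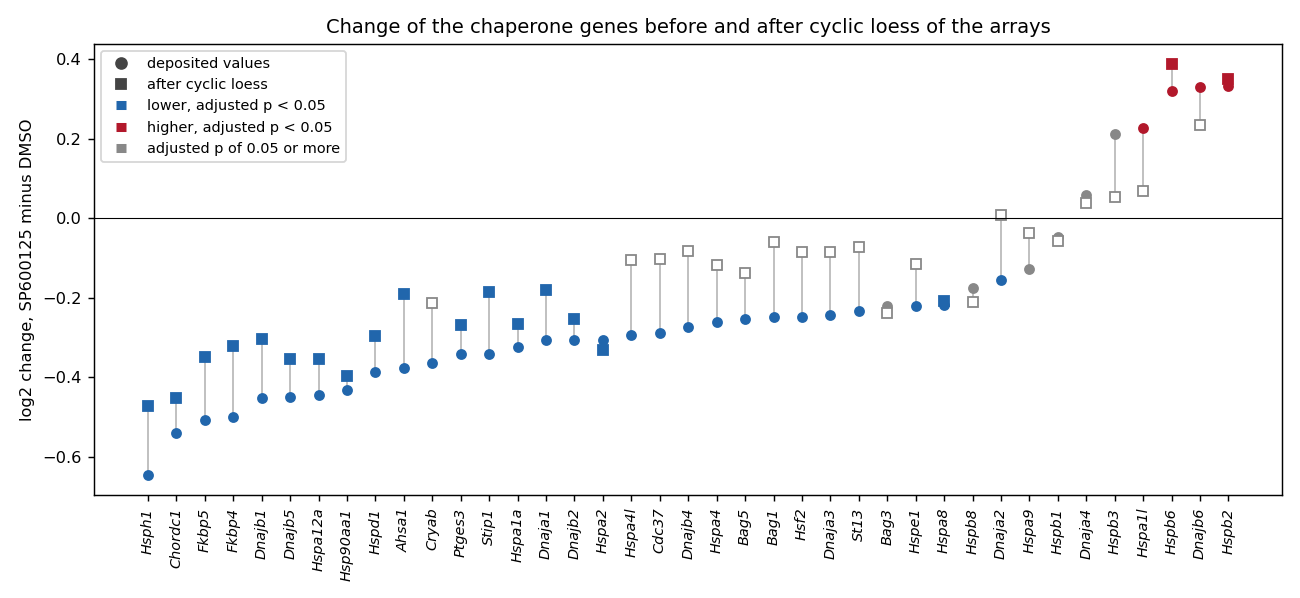
Log2 change of each member, SP600125 minus DMSO, in the deposited values (circles) and after cyclic loess of the arrays (squares; open where the adjusted p is 0.05 or more), ordered by the deposited change. The members at the left keep a lower value after loess, such as Hsph1 at −0.47 and Chordc1 at −0.45, and many in the middle come within 0.15 of 0.

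The members' medians were close in both drug batches. The median change was −0.26 in batch 1, with 2 arrays per group, and −0.28 in batch 2, with 3 arrays per group. The interaction of treatment and drug batch, which tests whether the response differed between lots, passed for 0 members (limma, lowest adjusted p = 0.5041) and for 0% of all genes, and at an unadjusted p under 0.05 it singled out 5 of 39 members beside 9.29% of all genes. The lowest p belonged to Hspb8, with 0.07 in batch 1 and −0.34 in batch 2, and to Dnaja4, with 0.33 in batch 1 and −0.13 in batch 2, and Dnajb1 followed, with −0.25 in batch 1 and −0.59 in batch 2. Hspa1a (−0.15 in batch 1, −0.44 in batch 2) and Hspe1 (−0.38 in batch 1, −0.12 in batch 2) were the other 2. Between DMSO neurons of batch 2 and batch 1, 0 members differed (limma, lowest adjusted p = 0.2312), beside 0.0401% of all genes, and 3 of 39 did at an unadjusted p under 0.05, beside 11% of all genes.

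**Figure D5:**
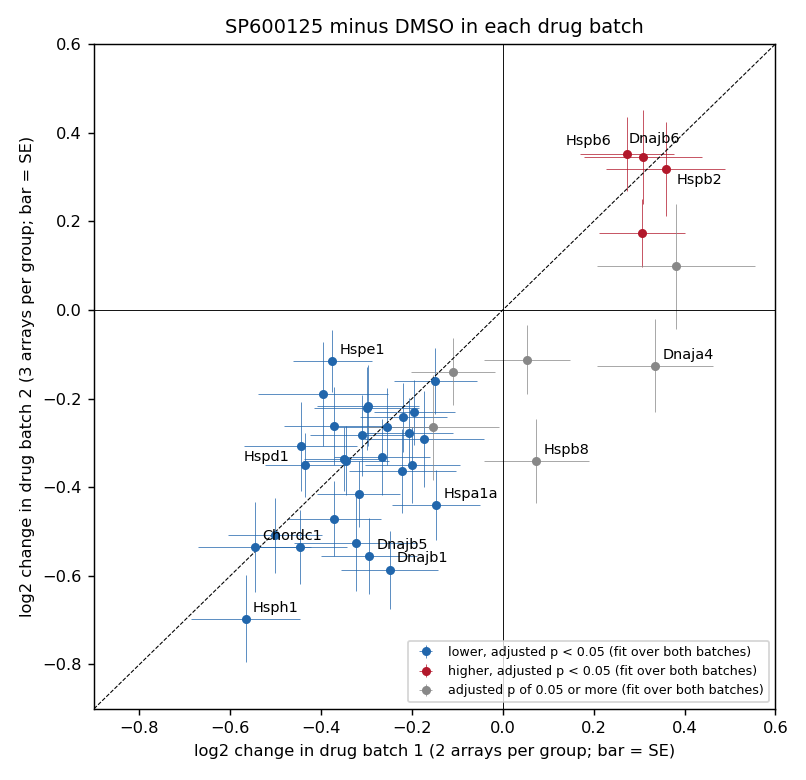
Log2 change of each member in drug batch 2 (vertical axis, 3 arrays per group) against drug batch 1 (horizontal axis, 2 arrays per group), SP600125 minus DMSO, with SE bars and the line of equal change dashed. The members that fell lie in the lower left and those that rose in the upper right, while Dnaja4, Hspb8 and Hspb1 have opposite signs in the 2 batches.

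Chaperone genes outside the list, taken from 7 written groups of 57 genes, gave 34 that fell, 3 that rose and a median of −0.24, beside the 29.9% of all genes that fell and 50.2% to 65.8% in the brightness classes from 6 to 10. After cyclic loess 17 of the 57 fell, with a median of −0.10, beside 17.7% of all genes. All 8 subunits of TRiC, the ring that folds actin and tubulin, were measured and 7 fell (median −0.32), 5 of 8 after loess, led by Cct3 at −0.42 (SE 0.06) and Cct6a at −0.39 (SE 0.06). Of 6 prefoldin subunits, which hand clients to TRiC, 2 fell, Pfdn4 at −0.34 (SE 0.07) and Pfdn6 at −0.31 (SE 0.07), of which Pfdn6 did not pass after loess (−0.15, limma adjusted p = 0.1432). Of 12 other HSP90 cochaperones 11 fell (median −0.29), led by Aarsd1 at −0.43 (SE 0.07) and Unc45a, a chaperone of myosin, at −0.31 (SE 0.08). After loess 3 of these 12 fell (median −0.11), and Unc45a did not pass (−0.15, limma adjusted p = 0.1). Of 12 other HSP70 partners 9 fell (median −0.33), 6 after loess, led by Dnajc6, the auxilin of clathrin uncoating, at −0.53 (SE 0.13) and Hspa13 at −0.45 (SE 0.06). Of 11 other mitochondrial chaperones and proteases 5 fell (median −0.15), 2 after loess, led by Trap1, the mitochondrial HSP90, at −0.49 (SE 0.05) and Clpb, a disaggregase, at −0.38 (SE 0.07). Among 4 other small heat shock proteins Hspb7 rose by 0.26 (SE 0.07), and among 4 other genes of the heat shock factor group Hsf2bp rose by 0.21 (SE 0.08) and Hsf5 by 0.16 (SE 0.06). The 3 genes that rose lay under the olfactory 95th percentile, and none of them passed after cyclic loess (0.11, 0.07 and 0.01).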

How the data were processed

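Total RNA of 10 samples (5 SP600125, 5 DMSO) was measured on Affymetrix whole-transcript arrays. The authors deposited log2 expression values per probe set and, per the submitters' processing notes, used oligo 1.14.0. How they corrected background, normalized arrays and summarized probes is not given in the sources used here. The log2 scale was taken from the values (1.8984 to 13.8294). Of 35556 probe sets, 21789 named 1 gene symbol in the platform annotation, 1621 named several and 12146 were unnamed. The probe set with the highest mean stood for a gene, which gave 19938 genes (999 with several probe sets). Symbols of 21698 probe sets matched RefSeq (GRCm38.p6), which also supplied the promoters.

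The deposited values were fitted in R 4.3.3 with lmFit and eBayes of limma 3.58.1 (two-sided tests; treatment and drug batch as terms; 7 residual degrees of freedom), with Benjamini-Hochberg adjusted p under 0.05 as threshold. The interaction and the DMSO batch contrast came from a treatment-by-batch fit. The script was tested on simulated data. Precision is limited by the number of arrays. Alternatives covered scaling, batch term, replicate block, probe set choice and left-out arrays. The members, gene lists and marker lists were chosen with earlier results of these data known. Values were printed per array for the 12 largest changes, for further members named in a written list and for the members that rose, the others by change and SE, and up to 2 genes per pathway group.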

Additional observations from a re-analysis of the deposited data

Results flagged for a closer look

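Among the members' 78 groups of 5 arrays, 2 held an array whose gap to its nearest neighbour was a large part of the group's whole range (Dixon's criterion, 0.71 for 5 arrays), and about 1 group in 20 does so by chance. For Bag5, DMSO a had 7.11, while the other DMSO arrays had 6.83 to 6.91 (gap over range 0.733). For Hspb1, DMSO b had 6.15, while the other DMSO arrays had 5.95 to 5.99 (gap over range 0.795).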

How the results depend on the processing

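Of 22 alternatives, drug batch 1 alone (2 arrays against 2) ended every call, leaving 0 members higher and 0 lower and 1 gene of 19938 called, although the members' median was −0.26. Of the 33 calls, 19 (17 falls and 2 rises) passed in all 21 other alternatives. Cyclic loess gave 2 members higher and 17 lower with a median of −0.18, and Dnaja2 turned to 0.009. Quantile normalization gave 2 higher and 21 lower, beside 7.51% and 22.5% of all genes. Alignment at the all-probe-set median gave a median of −0.37. Over all genes, besides the splits given above, the genes over the olfactory 95th percentile gave 1040 rises and 6067 falls. Leaving out 1 array at a time gave 26 to 32 members lower, 4 to 5 higher and medians of −0.30 to −0.24. Of all genes 25.6% to 31.9% then fell and 12% to 17.4% rose. Dnaja2 lost its call without SP600125 a, c or d or DMSO a, c or d (−0.16 to −0.14), Dnaja3 without SP600125 a, d or e or DMSO a, c or d (−0.24 to −0.19), and Dnajb4 without SP600125 a or DMSO a or e (−0.25 to −0.19). Hspb8 (−0.24) and Hspa9 (−0.16) passed without SP600125 b. Same-letter samples did not deviate together from the means of their group and batch (correlations of −0.34 to 0.04). The values for a and b are equal by construction, since drug batch 1 held 2 arrays per group. Letters were not taken as pairs. The fit with the replicate block gave 4 members higher and 27 lower, beside 14.8% and 26.6% of all genes. The causes of these shifts were not tested. Signals near those of olfactory receptors limit Hspa1l and Hspb3, and Dnajb6 in DMSO neurons.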
